A study of Mus musculus with 24 samples.

Results

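The comparison described here is a difference of changes: the change of each gene over 10 days of differentiation in G9a knockout cells, minus the change of the same gene in the parental cells. All cells were female mouse embryonic stem cells of the line 16.7 Tsix +/TST, so both lines carry that Tsix allele. The parental line (WT) and the line in which G9a had been deleted (KO) were each sampled undifferentiated on day 0 and, after withdrawal of LIF, on day 10, following 4 days in suspension and 6 days on gelatinized plates. The labels do not say whether the knockout is 1 clone or several. Of the 24 samples of the series, the 12 total RNA libraries entered the comparison, 3 in each of the 4 groups, and 20624 of 24016 genes in the table had enough signal to be tested. Values are reads per gene that the authors brought to 1 shared total in each library (scaled reads), and changes are differences of log2(scaled reads + 1), which understates the change of low genes. A positive difference means that the gene ended higher, relative to its own day 0 level, in KO than in WT.

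G9a, encoded by Ehmt2, works with its partner GLP, encoded by Ehmt1, to place mono- and dimethylation on lysine 9 of histone H3, a mark of silent euchromatin. When embryonic stem cells lose the LIF signal, they shut down the network of naive pluripotency factors around Oct4 (Pou5f1), Sox2 and Nanog and switch on germ layer programmes. G9a is known for taking part in the lasting shutdown of pluripotency genes in differentiating cells, and for keeping germ cell genes silent.

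Ehmt2 (chr17:35035437-35050995, mm9) was read in every library. WT libraries held 987, 1102 and 1375 scaled reads on day 0 and 1297, 1359 and 719 on day 10, and KO libraries held 557, 441 and 375 on day 0 and 499.8, 758 and 628 on day 10. The KO libraries lay below the WT libraries on day 0, but the lines overlapped on day 10, where WT replicate 3 was low. The gene length in the table equals the genomic span for 99.5% of genes, so a deleted stretch inside the gene cannot be seen in these totals. The difference of changes of Ehmt2 was 0.54 (SE 0.44, unadjusted p = 0.239), and that of Ehmt1, the partner gene, was -0.30 (SE 0.36); without the 2 libraries with background described next they were 0.39 and -0.20.

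Depth and background differed between libraries. The 3 deepest libraries held 21087157 to 30527844 recovered reads (WT day 0 replicate 3, KO day 0 replicates 2 and 3), and the other 9 held 2081129 to 4220140. The gene Rn45s took 0.11% to 0.13% of reads in those 3 libraries and 14.8% to 25.1% in the other 9. The shared total of scaled reads includes Rn45s. All 3 are day 0 libraries and are spread unevenly over the lines, so this unevenness enters the difference of changes. In KO day 0 replicate 1 and WT day 10 replicate 3, 1459 olfactory and vomeronasal receptor genes, which stem cells should not express, summed to 7273 and 8097 scaled reads, against 225 to 2681 in the other 10 libraries. Those 2 libraries sit on the day and line where extra signal lowers the difference of changes of the genes that carry it. Leaving them out did not raise every difference. The median over genes with a group mean of at least 50 scaled reads went from -0.13 to -0.23 without them. That of 40 naive pluripotency genes went from 0.74 to 0.39. Values without the 2 libraries are therefore also given below. The 16 fibroblast markers, which feeder cells would carry, summed to 10462 in WT day 0 replicate 1 and to 1198 to 3988 in the other day 0 libraries. All 7 stem cell markers were present in every library, with sums of 21402 to 36875 on day 0 in WT and 25026 to 30714 in KO. On day 10 these sums were 3110 to 6191 in WT and 8907 to 12009 in KO, with no overlap between the lines. In bulk RNA, fewer cells of a type and less RNA per cell cannot be told apart.

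Both lines changed on differentiation, and most responding genes moved the same way in both. In WT, 417 genes rose and 494 fell (2.02% and 2.40% of the genes tested, limma, Benjamini-Hochberg adjusted p under 0.05). In KO, 502 rose and 1332 fell (2.43% and 6.46%), and 497 of the 2248 genes that passed in either line passed in both. H19, the imprinted noncoding RNA of the early embryo, rose from 202 ± 67.7 to 24554 ± 11609 scaled reads in WT (mean ± SD, n = 3) and from 279 ± 131 to 27213 ± 4596 in KO. T, the primitive streak factor Brachyury, rose from 11.8 ± 11.6 to 416 ± 28.1 in WT and from 8.38 ± 3.53 to 419 ± 124 in KO, and its day 10 libraries overlapped between the lines. Cdx2, a caudal and trophoblast factor, rose by 7.41 in WT and 5.68 in KO on the log2 scale. The differences of changes were -0.14 (SE 0.62) for H19, 0.09 (SE 0.83) for T and -1.73 (SE 1.19) for Cdx2. For H19 and T the sign turned when single libraries were left out (-0.63 to 0.21 and -0.62 to 0.64). Without the 2 libraries with background the differences were -0.97 for H19, 0.42 for T and -0.61 for Cdx2. These 3 genes were named as examples of the response and not for their difference.

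The counts of changed genes in each line rested on a few libraries. The WT count of 911 became 466 without WT day 0 replicate 3 or without WT day 10 replicate 2, and 1389 without KO day 0 replicate 1. The KO count of 1834 became 4496 without WT day 10 replicate 3, 2889 without KO day 0 replicate 1, 304 and 285 without KO day 0 replicates 2 and 3, and 502, 298 and 199 without KO day 10 replicates 1, 2 and 3. With RLE scaling 589 genes rose and 399 fell in WT, and 785 rose and 700 fell in KO, so the surplus of falling genes did not hold under that scaling.

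Responses were smaller in the line in which they had not been chosen, whichever line that was. The 417 genes that rose in WT had a median change of 2.14 there and of 1.71 in KO (SD 0.14 over the KO day 10 libraries), and 406 of them were above 0 in KO. The 494 genes that fell in WT had medians of -2.03 in WT and -1.38 in KO (SD 0.14), with 491 below 0 in KO. Read the other way, the 502 genes that rose in KO had medians of 1.93 in KO and 1.51 in WT (SD 0.18). The 1332 genes that fell in KO had medians of -3.14 in KO and -0.79 in WT (SD 0.98), a WT value that spread widely between libraries. Genes chosen for passing in a line tend to have an inflated change there, and because a shrinkage was seen in both directions, these medians do not show that either line responded less.

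No gene passed for the difference of changes itself after adjustment. Limma called 0 of 20624 genes (0%, lowest adjusted p = 0.547), and edgeR on recovered reads called 0 of 14884 (lowest adjusted p = 0.437). Without adjustment, limma gave p under 0.05 for 176 genes with a higher change in KO (0.853%) and 1619 with a lower one (7.85%), and edgeR for 256 and 1287. DESeq2 called 12 genes higher (0.0752%) and 132 lower (0.827%) at an adjusted p under 0.05. Without KO day 0 replicate 1 and WT day 10 replicate 3, limma and edgeR again called 0 and DESeq2 called 12 (9 higher, 3 lower). The median over all genes tested was -0.36, and -0.27 without those 2 libraries; it was -0.21 when Rn45s was left out of the common total.

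The surplus of genes with a lower change in KO was not stable. Of the 1619 genes, 1163 had a KO day 10 mean under 10 scaled reads. Among the 13602 genes with a mean of at least 50 in a group, 158 were higher (1.16%) and 740 lower (5.44%), of which 90 and 219 also had p under 0.05 without the 2 libraries with background. Over all genes, limma without those 2 libraries gave 273 higher and 929 lower, whereas edgeR on the same 10 libraries gave 626 higher and 268 lower. The 1619 became 863 without WT day 10 replicate 3 and 2582 without WT day 10 replicate 1. The 176 became 266 without WT day 10 replicate 1, and 108, 88 and 115 without KO day 0 replicate 3 and KO day 10 replicates 2 and 3. Leaving Rn45s out of the total gave 347 higher and 1266 lower.

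**Figure D1:**
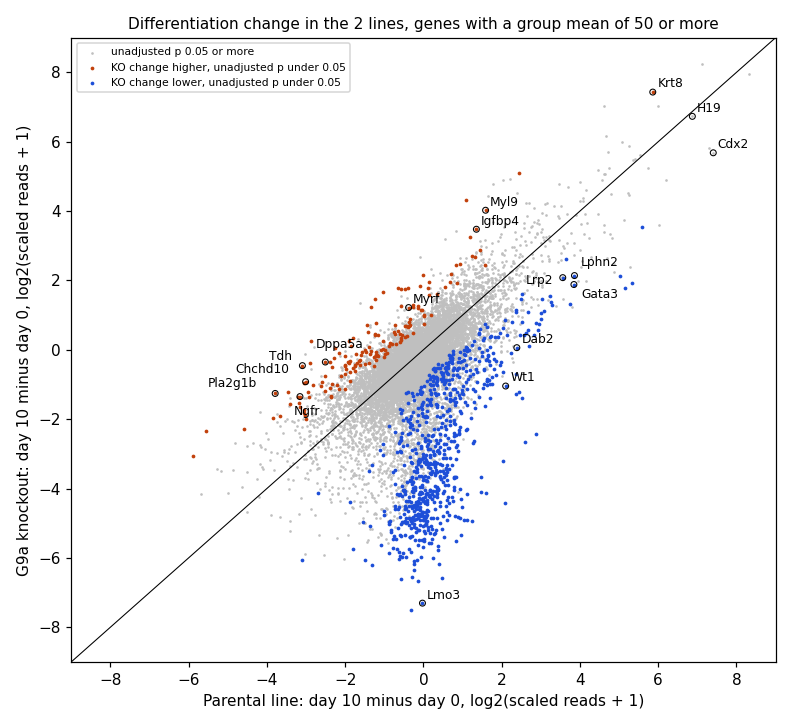
Change from day 0 to day 10 in the parental line (x) and in the G9a knockout (y), both as differences of log2(scaled reads + 1), for the 13602 genes with a mean of at least 50 scaled reads in a group. Points above the line of equality (orange, 158 genes with unadjusted p under 0.05) changed by a higher value in KO, and points below it (blue, 740 genes) by a lower one; a dense blue column lies at WT changes near 0 and strongly negative KO changes.

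Genes that passed in at least 1 line were sorted by how their KO change stood to their WT change. A fall was blunted where both changes were negative and the KO one smaller in size (425 genes), and exaggerated where the KO one was larger (911). A rise was blunted in 288 genes and exaggerated in 362, and 262 genes had changes of opposite sign. Members with a group mean of at least 50 were then held to an unadjusted p under 0.05 for the difference. They also had to keep its sign in every fit with a library left out and without the 2 libraries with background. This left 71 of 412 blunted falls, 50 of 285 blunted rises, 22 of 350 exaggerated rises, 226 of 722 exaggerated falls and 126 of 126 opposite changes. Of all genes with such a mean, 1.16% were higher and 5.44% lower at that p. The sign condition removed none of these 158 higher and 740 lower genes. For opposite changes a low p nearly follows from the class, since the difference exceeds the change that passed. Genes are named below by the lowest unadjusted p in each class, by the highest and lowest differences, and by list. Their adjusted p in limma was at least 0.547 in every case.

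The blunted falls with the lowest p were Chchd10, Ngfr, Tdh, Pla2g1b, Mboat4 and Dppa5a. Chchd10 (chr10:75398318-75400479) encodes a mitochondrial protein of the cristae. WT libraries held 824, 944 and 521 scaled reads on day 0 and 120.4, 98.8 and 63.2 on day 10. KO libraries held 479, 403 and 394 on day 0 and 242, 241 and 191 on day 10. KO thus began below every WT library and ended above every WT library, while within each line the days did not overlap. The change was -3.01 in WT (limma adjusted p = 1.7e-04) and -0.92 in KO (adjusted p = 0.083), and the difference was 2.09 (SE 0.46, unadjusted p = 4.8e-04). It was 1.92 without the 2 libraries with background and ran from 1.83 to 2.34 over the fits with each library left out.

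The promoter of Chchd10 is shown because an H3K9ac peak, a mark of active promoters, lay within 1 kb of its start in only some samples. In the authors' peak lists the fold enrichment there was 3.75 in KO on day 0 and 3.85 in KO on day 10, and no peak was listed in WT on either day. The ChIP samples have no replicates, and 62.9% to 79.2% of tested genes with a group mean of at least 50 had such a peak in a sample. The window is chr10:75932880-75933179 on the plus strand of GRCm38.p6, from RefSeq (250 bases before the start to 50 after), and not the mm9 build of the gene table. This window and those printed below were matched to their genes by symbol. Whether they hold the same start that was searched for peaks was not tested. Capitals mark the octamer ATGCAAAT, searched on both strands, which 1.74% of 32851 such windows hold. The window holds 5 CpG dinucleotides, against a median of 7.
Chchd10: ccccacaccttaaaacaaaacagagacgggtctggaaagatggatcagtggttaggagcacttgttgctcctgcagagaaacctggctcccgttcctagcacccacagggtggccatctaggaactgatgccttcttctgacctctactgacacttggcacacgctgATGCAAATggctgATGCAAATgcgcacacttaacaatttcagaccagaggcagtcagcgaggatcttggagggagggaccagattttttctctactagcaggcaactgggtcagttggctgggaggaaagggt

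Tdh (chr14:64111184-64127929), threonine dehydrogenase, which stem cells use to feed one-carbon metabolism, had the highest difference of the 6 blunted falls with the lowest p. In WT it stood at 1015, 551 and 1730.3 scaled reads on day 0 and at 67.9, 251 and 89.1 on day 10. In KO it stood at 819, 1536 and 1551 and then at 774, 958 and 1019. Every KO library of day 10 lay above every WT library of day 10, and the KO days overlapped. WT fell by 3.09 (limma adjusted p = 0.00251), the KO change was -0.46 (adjusted p = 0.519), and the difference was 2.64 (SE 0.69, 2.15 without the 2 libraries).

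Dppa5a (chr9:78214861-78216006), an RNA-binding protein of pluripotent cells with several close copies in the genome, showed the same pattern with less spread in KO. WT held 1818, 3286 and 2599 on day 0 and 828, 642 and 158 on day 10, the last value from a library with background. KO held 1616, 1407 and 1338 on day 0 and 1154, 1155 and 1098 on day 10. KO was below WT in every library on day 0 and above it in every library on day 10. The difference was 2.15 (SE 0.66) and 1.50 without the 2 libraries.

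Ngfr (chr11:95430140-95449012), the p75 neurotrophin receptor, fell in both lines. WT went from 414, 267 and 426 to 37, 39.1 and 43.1 scaled reads, and KO from 324, 265 and 235 to 111, 118 and 91.7. The lines overlapped on day 0, and on day 10 each KO library was above each WT library. Changes were -3.15 in WT (limma adjusted p = 1.6e-04) and -1.35 in KO (adjusted p = 0.0288), a difference of 1.81 (SE 0.47; 1.99 without the 2 libraries). Pla2g1b, a secreted phospholipase A2, went from 353 ± 133 to 25.8 ± 14 in WT and from 144 ± 32.9 to 62.7 ± 26.2 in KO, with a difference of 2.53 (SE 0.73; 2.79 without the 2 libraries). Mboat4, the acyltransferase that activates ghrelin, went from 183 ± 71.4 to 24.7 ± 10.9 in WT and from 134 ± 49.6 to 106 ± 49.5 in KO, with a difference of 2.50 (SE 0.76; 2.32 without the 2 libraries). For Pla2g1b the day 10 libraries of the lines overlapped, and for Mboat4 they did not. Higher differences still were found in low genes. Sept1, a septin, held 3.09, 10.3 and 0 in WT and 19.8, 38.3 and 35.1 in KO on day 10 (difference 3.21, SE 1.07, or 2.31 without the 2 libraries). S100a16, a calcium-binding protein, is not a blunted fall but had changes of opposite sign, -2.88 in WT and 0.25 in KO. On day 0 it held 49.5, 91.9 and 47.25 in WT and 43.6, 21.8 and 21.8 in KO. On day 10 it held 15.4, 4.12 and 5.75 in WT and 31.7, 30.1 and 37.8 in KO (difference 3.13, SE 0.91, or 3.31 without the 2 libraries).

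Most of the 40 naive pluripotency factors and stem cell markers had a higher value of change in KO than in WT. In WT 27 of the 40 fell and in KO 19 fell (limma adjusted p under 0.05, against 2.40% and 6.46% of all genes), with median changes of -2.38 and -1.57. The difference was above 0 for 35 of 40, against 33.9% of all genes tested. Its median was 0.74, against -0.36 over all genes. A high share above 0 was not particular to this list. It was 21 of 23 for histone genes and 32 of 38 for cytosolic ribosomal protein genes, with medians of 0.44 and 0.28. Without the 2 libraries with background these shares were 16 of 23 and 12 of 38. All 40 members had a group mean of at least 50, and over all genes with such a mean the median was -0.13. Unadjusted p was under 0.05 for 8 members with a higher change and for 0 with a lower one. The shares were 0.853% and 7.85% of all genes, and 1.16% and 5.44% of those with such a mean. Without the 2 libraries with background 29 of 40 were above 0 (35.9% of all genes). The list median was then 0.39, against -0.27 over all genes and -0.23 over those with a group mean of at least 50. The median stayed above 0 in all 30 alternative settings, from 0.28 to 1.05. The median distance between the lines was 0.13 on day 0 and 0.96 on day 10. The list was assembled with earlier results of these data known.

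Among the core factors Pou5f1, Sox2 and Nanog, only Pou5f1 (Oct4; chr17:35642977-35647722) had an unadjusted p under 0.05. WT held 3088, 3724 and 3557 scaled reads on day 0 and 1414, 1244 and 385 on day 10, and KO held 2818, 2836 and 2747 and 1777, 2253 and 1694. All KO libraries were lower than WT on day 0 and higher on day 10. WT fell by 1.97 (limma adjusted p = 0.00979), the KO change was -0.56 (adjusted p = 0.312), and the difference of 1.41 (SE 0.55) was 0.82 without the 2 libraries. WT day 10 replicate 3, with its background, was the lowest WT library for this gene.

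Nanog fell in both lines, from 4935 ± 2307 to 929 ± 147 in WT and from 6199 ± 1398 to 1997 ± 305 in KO. Its difference was 0.69 (SE 0.47, unadjusted p = 0.162). Sox2 went from 2625 ± 1220.3 to 496 ± 244 in WT and from 2930.4 ± 499 to 1158 ± 279 in KO, with a difference of 1.09 (SE 0.62, unadjusted p = 0.0994). The differences were 0.36 for Nanog and 0.42 for Sox2 without the 2 libraries with background. For both genes every KO library of day 10 lay above every WT library of day 10, and the day 0 libraries overlapped.

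Other members of the network lay above 0 as well. Esrrb, a nuclear receptor of the naive state, had changes of -2.99 in WT and -1.99 in KO (difference 1.00, SE 0.45; 0.76 without the 2 libraries). Fgf4, the growth factor that primes cells for differentiation, had changes of -3.16 and -1.64 (difference 1.52, SE 0.52; 0.89 without them), and Dppa4, a chromatin protein of pluripotent cells, had -1.87 and -0.65 (difference 1.22, SE 0.42; 0.98 without them). Klf2, a Kruppel-like factor, had changes of -1.84 and 0.10, and Zfp42 (Rex1) of -3.05 and -1.74; their differences were 1.95 and 1.32, or 1.37 and 1.21 without the 2 libraries. Among the 5 members below 0 were Manba, Klf5, Rex2 and Slc2a3, at -0.60, -0.55, -0.16 and -0.10, and none of the 5 had unadjusted p under 0.05. These were -0.50, -1.27, -2.07 and -0.27 without the 2 libraries. Klf4, the factor beside Klf2 and Klf5, had changes of -3.91 and -3.17, and its difference of 0.74 turned to -0.83 without the 2 libraries.

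**Figure D2:**
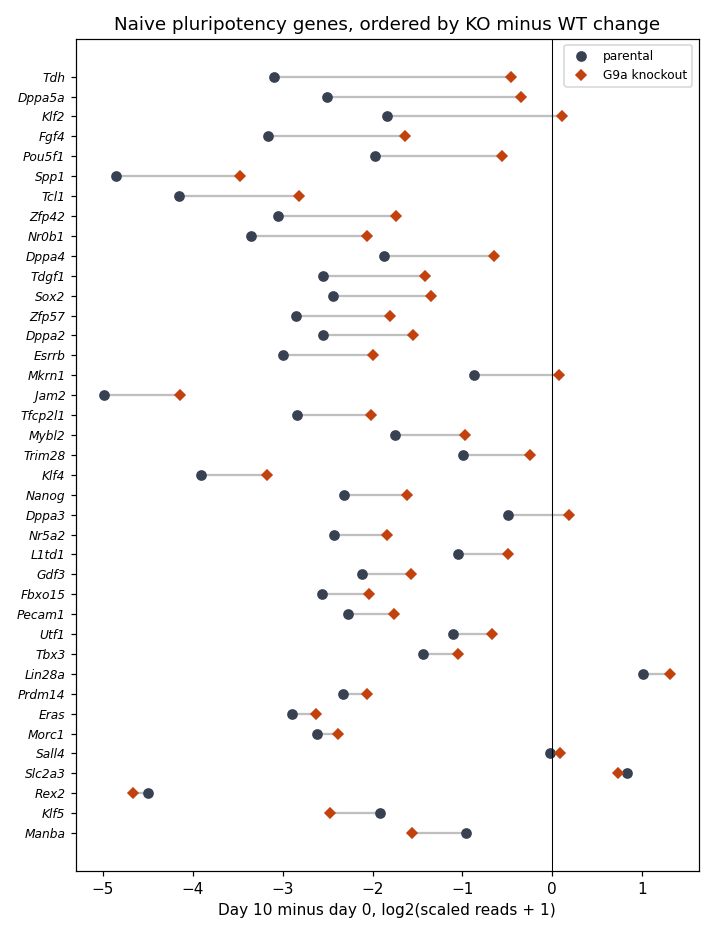
Change from day 0 to day 10, as differences of log2(scaled reads + 1), of 39 of the 40 naive pluripotency genes in the parental line (circles) and the G9a knockout (diamonds), ordered by the difference between them. In 35 of the 39 genes the diamond lies to the right of the circle, with Tdh, Dppa5a and Klf2 at the top.

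The blunted rises with the lowest p were Slc22a23, Lphn2, Lrp2, Sema3e, Dab2 and Jph1. Lrp2 (chr2:69262392-69424124) encodes megalin, a giant endocytic receptor. WT held 495, 488 and 371 scaled reads on day 0 and 7056, 4410.3 and 4789 on day 10. KO held 592, 678 and 681 on day 0 and 3408, 2708 and 2254 on day 10. KO began above and ended below every WT library. Lrp2 rose by 3.56 in WT (limma adjusted p = 1.2e-05) and by 2.08 in KO (adjusted p = 9.7e-04), a difference of -1.48 (SE 0.38, unadjusted p = 0.00161) that was -1.62 without the 2 libraries.

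The Lrp2 promoter is printed beside that of Chchd10 because it gained an H3K9ac peak on differentiation in both lines. No peak was listed within 1 kb of its start on day 0, and on day 10 the authors' fold enrichment was 2.91 in WT and 3.09 in KO. The RefSeq window is chr2:69585980-69586279 on the minus strand of GRCm38.p6, written along the gene. Capitals mark GGGCGG, a box read by SP and KLF factors, found in 35.7% of all windows when both strands are searched. With 20 CpG dinucleotides the window is richer in CpG than the median window, which has 7.
Lrp2: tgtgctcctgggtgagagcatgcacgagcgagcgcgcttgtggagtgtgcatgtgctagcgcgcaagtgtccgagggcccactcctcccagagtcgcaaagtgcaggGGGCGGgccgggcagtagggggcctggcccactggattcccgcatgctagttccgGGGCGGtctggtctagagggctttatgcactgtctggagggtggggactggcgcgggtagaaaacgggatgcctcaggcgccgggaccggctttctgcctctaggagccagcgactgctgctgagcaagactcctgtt

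Lphn2 (latrophilin 2, now Adgrl2; chr3:148478550-148617599), an adhesion receptor of the G protein coupled type, stood at 290.0, 138 and 203 on day 0 in WT and reached 2702, 2656 and 3524. In KO it stood at 392, 355 and 366 and reached 1698, 1681 and 1543. As for Lrp2, all KO libraries were higher on day 0 and lower on day 10. The rise was 3.86 in WT and 2.14 in KO (limma adjusted p = 1.2e-05 and 0.00118), with a difference of -1.72 (SE 0.40; -1.55 without the 2 libraries). DESeq2 gave an adjusted p of 0.041 for this difference over 12 libraries and did not call it without the 2 libraries. The edgeR adjusted p was 0.437.

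Slc22a23, an orphan transporter, rose by 2.52 in WT (limma adjusted p = 2.1e-04), and its KO change was 0.80 (adjusted p = 0.0827); the difference was -1.72 (SE 0.40). Sema3e, a secreted guidance cue, went from 184 ± 83.6 to 1425 ± 394 in WT and from 356 ± 185 to 608 ± 43.8 in KO (difference -2.12, SE 0.54). Jph1, a junctophilin of membrane contacts, went from 73.3 ± 21.2 to 549 ± 177 and from 149 ± 89.2 to 228 ± 20.4 (difference -2.12, SE 0.59). On day 10 the KO libraries were below the WT libraries for all 3 genes. KO day 0 replicate 1 held 569.8 scaled reads of Sema3e and 252 of Jph1, well above the other KO day 0 libraries. Without it and WT day 10 replicate 3 the differences were -1.50, -1.50 and -1.43.

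Dab2 (chr15:6249789-6390709), the clathrin adaptor that works with megalin, went from 106, 50.1 and 52.1 to 343, 199.7 and 604 scaled reads in WT. In KO it went from 230.4, 136 and 138 to 143, 178 and 194. KO lay above WT on day 0 and below it on day 10, and the KO days overlapped. The difference was -2.33 (SE 0.63) and -1.68 without the 2 libraries, which held the highest value in their own groups.

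Lrp2 and Dab2 belong to the list of primitive and visceral endoderm genes, of which 36 were tested and 12 had a difference above 0 and 24 below it (66.1% of all genes were below). In WT 3 rose and 1 fell, and in KO 4 rose and 2 fell (2.02%, 2.40%, 2.43% and 6.46% of all genes). The median difference was -0.70, against -0.36 over all genes. Without the 2 libraries 13 of 34 were above 0 (64.1% of all genes were below) and the median was -0.36, against -0.27; with edgeR and DESeq2 on 10 libraries it was above 0. Of the 36 members 18 reached a group mean of 50, with 8 of these above 0. Their median was -0.06, against -0.13 over all genes with such a mean. Among the low members, the serum protein genes Afp, Fgb, Fga and Ttr had group means of at most 24.7, 11.0, 11.3 and 10.8 scaled reads. The 6 visceral endoderm markers summed to 610.2 and 724 in the 2 libraries with background and to at most 189 in the others, so the part of background in this list's median was not tested. Gata4, Gata6 and Pdgfra, regulators of primitive endoderm, had differences of 0.43, 0.16 and 1.39, or 0.89, 1.27 and 2.61 without the 2 libraries.

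Gata3 (chr2:9778705-9800227), a transcription factor of trophoblast and other lineages, was among the 7 genes called by DESeq2 with and without the 2 libraries. WT held 10.6, 29.2 and 27.9 on day 0 and 324, 346 and 267 on day 10, and KO held 37.4, 71.3 and 71.3 and 198, 238 and 210.3. KO began higher and ended lower in every library. The limma difference was -1.96 (SE 0.63) and -2.38 without the 2 libraries; DESeq2 gave -1.86 (adjusted p = 0.0407) and -2.04 (adjusted p = 0.0487). The other 6 genes were Chchd10, Ngfr, Pla2g1b and Myrf, with higher values, and Wt1 and 3830417A13Rik, with lower ones. DESeq2 gave 2.18 (adjusted p = 0.0400) for Chchd10, 1.94 (0.0433) for Ngfr and 2.70 (0.0443) for Pla2g1b over 12 libraries.

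Nog, the BMP antagonist Noggin, was read at 0, 0 and 12.2 in WT on day 0 and at 61.8, 55.6 and 31.6 on day 10, and in KO at 15.6, 12.4 and 18.5 and 27.8, 19.17 and 27.0. Its difference of -3.73 depends on the pseudocount because 2 WT libraries were at 0. Usp29 and Sgce, paternally expressed imprinted genes, rose in both lines. The changes of Usp29 were 3.23 in WT and 1.56 in KO (difference -1.67, SE 0.59; -1.03 without the 2 libraries), and those of Sgce were 2.52 and 1.60 (difference -0.91, SE 0.42; -0.70 without the 2 libraries). Over the 41 imprinted genes tested 15 had a difference above 0 and the median was -0.30, close to the median of all genes (33.9% above 0, median -0.36).

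Changes of opposite sign were led by Wt1 (chr2:104966686-105013771), the Wilms tumour zinc finger factor. WT held 24.8, 29.2 and 33.6 scaled reads on day 0 and 191, 82.4 and 132 on day 10. KO held 96.5, 87 and 96.4 on day 0 and 43.6, 63 and 32.4 on day 10. Every WT library was higher on day 10 than on day 0, every KO library was lower, and the lines did not overlap on either day. WT rose by 2.10 (limma adjusted p = 0.0166), the KO change was -1.04 (adjusted p = 0.133), and the difference was -3.15 (SE 0.65, unadjusted p = 2.4e-04), or -3.10 without the 2 libraries. DESeq2 gave -3.14 (adjusted p = 0.0135). The strand of counting is not given in the sources used here, so reads of the antisense transcript at Wt1 cannot be told apart from its own.

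Myrf (chr19:10282761-10315238), a membrane-bound transcription factor known from myelination, showed the reverse pattern. WT held 488, 422 and 424 on day 0 and 379.8, 344 and 305 on day 10, whereas KO held 277, 249 and 216 and 452, 611 and 688. KO was below WT in every library on day 0 and above it on day 10. The KO rise of 1.22 passed (limma adjusted p = 0.02), the WT change was -0.38 (adjusted p = 0.543), and the difference was 1.60 (SE 0.38), the same without the 2 libraries. Creb5, a CRE-binding factor, rose by 1.84 in WT and changed by -0.33 in KO (difference -2.18, SE 0.50; -1.83 without the 2 libraries). Kcnq3, a potassium channel subunit, held 556, 546 and 1391 in WT on day 10 and 483, 141 and 143 in KO on day 0, with the highest value of each group in a library with background; its difference went from -3.08 to -2.05 without them.

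**Figure D3:**
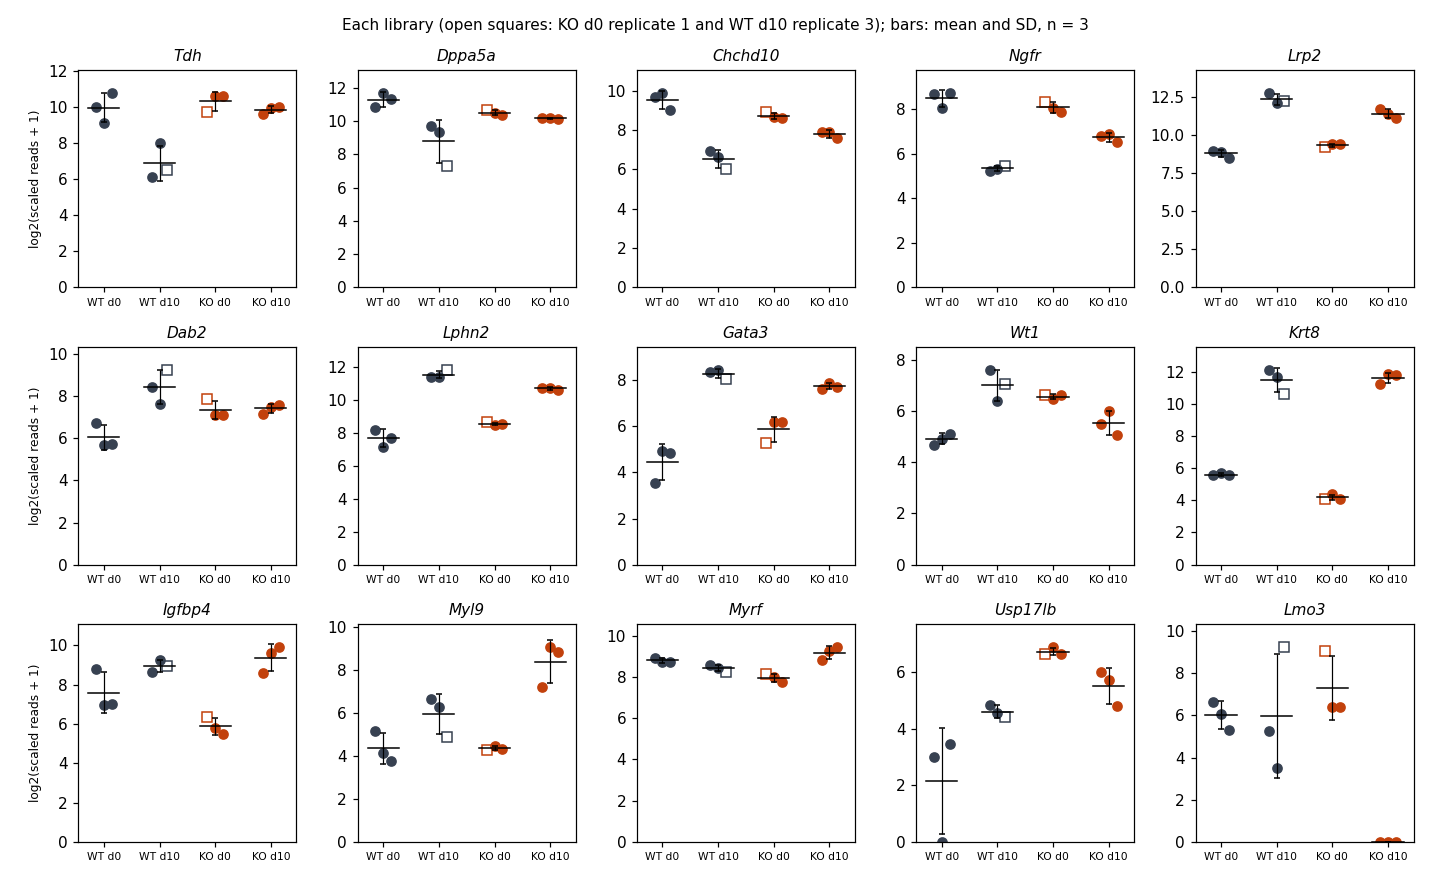
Scaled reads of 15 genes in each of the 12 libraries on a log2(scaled reads + 1) axis, with the mean and SD of each group (n = 3); open squares are KO day 0 replicate 1 and WT day 10 replicate 3. Chchd10 and Dppa5a show KO points below WT on day 0 and above it on day 10, Lrp2, Lphn2, Gata3 and Dab2 the reverse, and in Lmo3 the open squares stand far above the other points.

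The exaggerated rises with the lowest p were Krt8, Hmha1, Mob3a, Igfbp4, Myl9 and Cnn1. Krt8 (chr15:101827142-101834773), a keratin of simple epithelia, rose in both lines. WT held 46, 50.1 and 46.4 scaled reads on day 0 and 4354, 3239 and 1589 on day 10. KO held 15.6, 19.9 and 16.1 on day 0 and 2399.9, 3642 and 3484 on day 10. KO was lower in every library on day 0, and on day 10 the lines overlapped. The rise was 5.86 in WT and 7.43 in KO (limma adjusted p = 2.4e-06 and 1.1e-07), and the difference of 1.57 (SE 0.51) was 1.09 without the 2 libraries. The day 10 means were 3061 ± 1391 in WT and 3175 ± 676 in KO (mean ± SD).

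The Krt8 promoter is shown because, like that of Lrp2, it gained an H3K9ac peak in both lines. No peak was listed near its start on day 0 in either line, and on day 10 the authors' fold enrichment was 4.53 in WT and 5.08 in KO. The RefSeq window is chr15:102004293-102004592 on the minus strand of GRCm38.p6, with 6 CpG dinucleotides. Capitals mark AGATAA, a motif bound by factors of the family of Gata3, which 11.2% of windows hold on either strand. The box CCAAT, held by 37.4%, was also searched and is in none of the 3 windows printed.
Krt8: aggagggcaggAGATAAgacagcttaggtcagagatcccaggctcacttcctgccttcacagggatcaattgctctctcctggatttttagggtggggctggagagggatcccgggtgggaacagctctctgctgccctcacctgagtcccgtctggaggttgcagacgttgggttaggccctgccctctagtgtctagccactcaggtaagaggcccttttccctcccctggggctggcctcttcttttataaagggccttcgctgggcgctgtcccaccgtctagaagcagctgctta

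Igfbp4, a binding protein of insulin-like growth factors, held 449, 125 and 127 in WT on day 0, the first value from the library with the most fibroblast marker signal, and 405, 603 and 494 on day 10. KO held 81, 55 and 44.1 and 385, 778 and 952. KO rose by 3.48 (limma adjusted p = 0.00168), the WT change was 1.35 (adjusted p = 0.159), and the difference of 2.12 (SE 0.69; 2.36 without the 2 libraries) ran from 1.51 to 2.51 with libraries left out. Hmha1 (Arhgap45), a GTPase activating protein, went from 95.8 ± 11.4 to 303 ± 109 in KO and from 292 ± 40.4 to 326 ± 70.8 in WT (difference 1.45, SE 0.47; 1.35 without the 2 libraries). Mob3a, a kinase adaptor, went from 192 ± 16.5 to 589 ± 79.8 in KO and from 263 ± 75.9 to 329 ± 14.9 in WT (difference 1.25, SE 0.41; 1.16 without the 2 libraries), with all KO libraries above WT on day 10.

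Myl9 and Cnn1, a myosin light chain and calponin of smooth muscle, came from the contractile list. Myl9 held 102, 78.2 and 28.7 in WT and 151, 537 and 467 in KO on day 10, with no overlap, and 12.8 to 35.4 scaled reads in all day 0 libraries. It rose by 4.03 in KO (limma adjusted p = 0.00337), and the difference was 2.44 (SE 0.89; 1.87 without the 2 libraries). Cnn1 rose by 3.25 in KO (limma adjusted p = 0.00673) and had a WT change of 1.20 (difference 2.05, SE 0.80; 1.47 without the 2 libraries). Of the 22 contractile genes 6 rose in WT and 12 in KO, and 16 had a difference above 0 with a median of 0.32; of all genes 2.02% and 2.43% rose and 33.9% were above 0. Without the 2 libraries these were 12 of 22 (35.9% of all genes) and 0.12, and the median stayed above 0 in all 30 settings, from 0.10 to 0.58. Fibroblasts also express many of these genes. Their 16 markers summed to 3479 to 9126 scaled reads in KO day 10 libraries and to 2041 to 7108 in WT day 10 libraries. The median difference of these markers was 0.20, or 1.60 without the 2 libraries, with the sign turned in 3 of 30 settings. The part of fibroblasts in the contractile genes was not tested. Myocd, the master coactivator of smooth muscle, had a difference of -1.90, or -0.63 without the 2 libraries.

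Phlda2, a maternally expressed growth regulator of the placenta, rose by 2.87 in KO and had a WT change of 1.46 (difference 1.41, SE 0.64; 1.45 without the 2 libraries). Mmp2, a matrix protease, rose by 1.92 in KO, with a WT change of 0.85 (difference 1.07, SE 0.48; 0.83 without the 2 libraries). Nkx1-2, a homeobox gene of caudal progenitors, rose by 4.31 in KO, where it held 71.4, 279 and 269.7 on day 10 against 3.09, 80.3 and 23 in WT, and WT replicate 2 overlapped the KO range. Hand2, a heart and limb factor, held 43.6, 227 and 240.0 in KO and 0, 80.3 and 17.2 in WT on day 10, with a difference of 2.58 (SE 1.79; 2.52 without the 2 libraries, unadjusted p = 0.171). Of the 32 mesoderm regulators 8 rose in WT and 9 in KO (2.02% and 2.43% of all genes), 20 had a difference above 0 (33.9% of all genes), and the median was 0.24, or 0.68 without the 2 libraries, with the sign turned in 3 of 30 settings.

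Exaggerated falls were the most numerous class, and Lmo3, Kcnip4 and Lepr had their highest values in the 2 libraries with background. Lmo3 (chr6:138313002-138530489), a LIM-only factor of neurons, held 99, 66.8 and 39 in WT on day 0 and 37, 10.3 and 601 on day 10. KO held 542, 84.3 and 84.5 on day 0 and 0 in all 3 libraries on day 10. The highest value of its group was in WT day 10 replicate 3 and in KO day 0 replicate 1, the libraries with background. Glra3, a glycine receptor subunit with changes of opposite sign, was also at 0 in all KO day 10 libraries and held 40.1, 24.7 and 506 in WT on day 10. Kcnip4, a potassium channel partner in a very long gene, held 64.8, 49.4 and 1819 in WT on day 10 and 1526, 199.6 and 185 in KO on day 0, against 0, 2.74 and 13.5 in KO on day 10. Lepr, the leptin receptor, held 187, 74.6 and 71.3 in KO on day 0 and 0, 5.48 and 0 on day 10. With 1 group at 0, the fitted differences of Lmo3 and Glra3 (-7.28 and -7.08, or -4.77 and -4.76 without the 2 libraries) depend on the pseudocount.

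Lower differences were commonest in long genes while the libraries with background were included. With genes split by length into 4 equal groups (5156 genes each, median lengths of 3738, 11936, 27961 and 91058 bases), the median difference was -0.13, -0.20, -0.31 and -0.66. Without the 2 libraries it was -0.29, -0.27, -0.30 and -0.24. The share of genes lower with unadjusted p under 0.05 went from 3.72% in the shortest group to 13.96% in the longest. Rgs22, a regulator of G protein signalling, stayed present in KO on day 10: it fell by 2.96 in KO (limma adjusted p = 0.00381), from 395, 257 and 357 to 39.7, 52 and 35.1, while WT held 209, 175 and 335 and then 102, 88.5 and 328. Its difference was -2.28 (SE 0.67) and -1.56 without the 2 libraries.

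Some 2-cell-like and germline genes were higher in KO than in WT on day 0 and nearer to WT on day 10. Usp17lb (chr7:111988826-111991018), a deubiquitinase of a multicopy family active in 2-cell-like cells, held 99.6, 116 and 99.3 in KO and 7.07, 0 and 9.96 in WT on day 0. On day 10 it held 63.5, 52 and 27 in KO and 27.8, 22.6 and 20.1 in WT. Every KO library lay above WT on day 0, the day 10 libraries overlapped, and the difference was -3.66 (SE 1.15; -3.79 without the 2 libraries). Arg2, the mitochondrial arginase, held 90.3, 58.6 and 54.8 in KO and 31.8, 33.4 and 17.4 in WT on day 0, with a difference of -2.16 (SE 0.81; -1.53 without the 2 libraries). Of 21 tested genes of the 2-cell-like state 7 had a difference above 0, a share near that of all genes (33.9%), and 4 were lower with unadjusted p under 0.05 (7.85% of all genes), and the median was -1.07, or -1.38 without the 2 libraries. The median lay below 0 in all 30 settings, from -1.71 to -0.18. The median over all genes was also below 0 in every setting where it was taken, from -0.46 to -0.10. A median below 0 is therefore not particular to this list. Reads of these near-identical copies may be split between them, since the placement of reads with several positions is not given.

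On the X chromosome, multicopy germline genes had the lowest list median over 12 libraries, -1.80, with 4 of 21 above 0 (33.9% of all genes). Without the 2 libraries it was -1.36, and that of 2-cell-like genes was lower (-1.38). Xlr4c held 9.34, 27.4 and 23.9 scaled reads in KO and 7.07, 8.35 and 4.84 in WT on day 0, and 0 in every KO library of day 10, where WT held 3.09, 4.12 and 5.75. Magea8, a melanoma antigen family gene, held 49.8, 31.9 and 30.1 in KO and 0, 8.35 and 2.28 in WT on day 0, 0 in every KO library of day 10 and 0, 0 and 28.7 in WT, the last value from a library with background. Only 4 of the 21 reached a mean of 50 in a group, and their median was 0.14. Over all 822 X-linked genes the median difference was -0.49 with 259 above 0, against -0.35 over the 19802 other genes. Xist, the RNA that silences the X chromosome, rose by 3.52 in WT (limma adjusted p = 5.2e-05) and by 2.59 in KO (adjusted p = 6.7e-04), with a difference of -0.93 (SE 0.46, unadjusted p = 0.0605) and of -0.69 without the 2 libraries. Tsix, its antisense repressor, had a difference of -0.17, or 0.15 without the 2 libraries, and without strand reads of the overlapping pair cannot be told apart.

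Among chromatin genes, Wiz, a zinc finger partner of the G9a complex, rose by 1.00 in KO (limma adjusted p = 0.0314) and had a WT change of 0.20. It held 386, 522 and 433 in KO on day 0 and 833, 882 and 963 on day 10, against 594, 743 and 501 and 698, 745 and 649.6 in WT. All KO libraries lay above WT on day 10, and the difference was 0.80 (SE 0.36; 0.65 without the 2 libraries). No other member had unadjusted p under 0.05 among 21 H3K9 methyltransferases and readers, whose median difference was 0.01, or -0.12 without the 2 libraries. Pcgf2, a Polycomb ring finger protein, held 718, 463 and 462 and then 290.3, 307 and 282 in WT and 526, 447 and 375 and then 444, 512 and 496 in KO (difference 0.99, SE 0.39; 1.08 without the 2 libraries). Of the 31 Polycomb genes 18 were above 0, with a median of 0.09, or -0.16 without the 2 libraries.

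**Figure D4:**
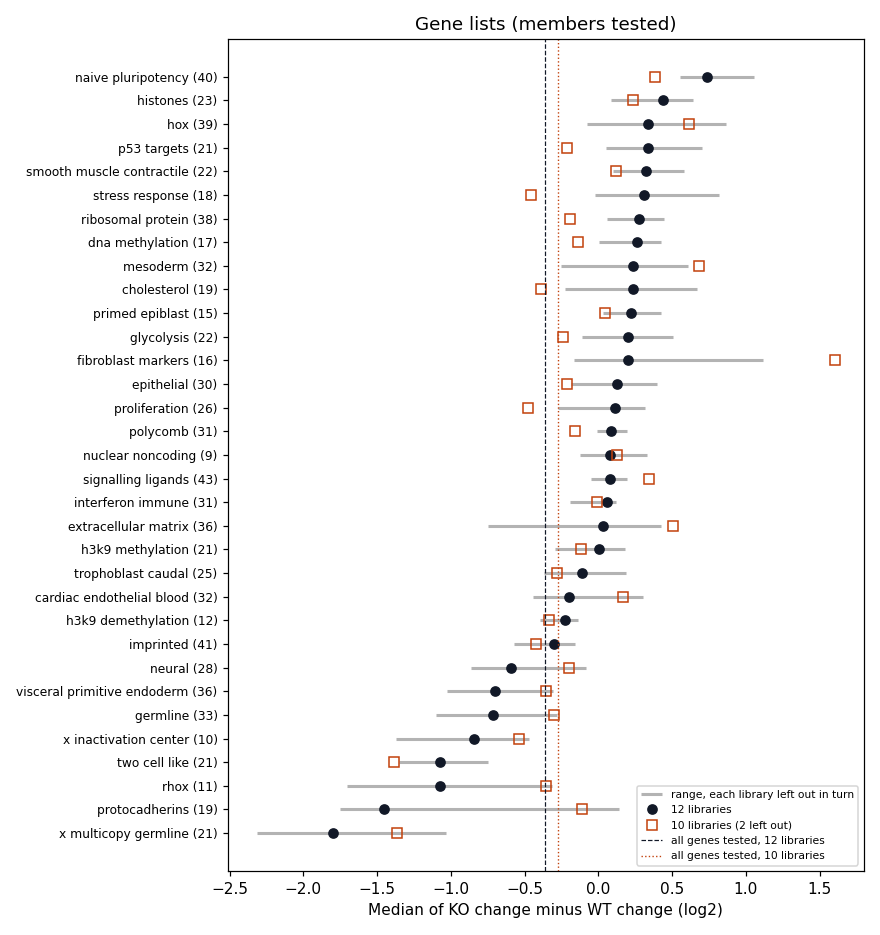
Median difference of changes (KO minus WT, log2) of each gene list over 12 libraries (filled circles), over 10 libraries without the 2 with background (open squares) and over the 12 fits that leave out a library (grey bars, lowest to highest). The dashed and dotted lines are the medians of all genes tested (-0.36 and -0.27). Over 12 libraries naive pluripotency genes lie at the top (0.74) and X-linked multicopy germline genes at the bottom (-1.80). Over 10 libraries fibroblast markers are highest (1.60) and 2-cell-like genes lowest (-1.38), with naive pluripotency genes at 0.39.

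Apart from Gata3 and Usp17lb, named from their lists, the genes that follow were chosen for keeping their sign with each library left out and without the 2 libraries, so 13 of the 30 alternative settings were fixed by that choice and show nothing about stability. The other settings refit the same libraries, or some of them, in which the genes were picked for a low p or a large difference. A sign kept in those settings is thus no independent support either. The difference was positive in every setting for Chchd10, Ngfr, Pla2g1b, Tdh, Dppa5a, Krt8, Igfbp4, Myl9 and Myrf, and negative for Lrp2, Lphn2, Dab2, Gata3, Wt1, Creb5, Usp17lb and Lmo3. It ran from 1.83 to 2.34 for Chchd10, from -1.64 to -1.21 for Lrp2, from -3.46 to -2.65 for Wt1 and from -12.7 to -4.38 for Lmo3. Of 58 named genes tested in these settings, DESeq2 called 17 over 12 libraries and 7 over 10 libraries. Of all genes it called 0.0752% higher and 0.827% lower over 12 libraries, and 12 genes over 10 libraries. Most of the 58 were named for a low limma p or a large difference in the same libraries, so a higher share follows from that choice. Limma and edgeR called none in either (0 of all genes, with unadjusted p under 0.05 for 1795 in limma and 1543 in edgeR).

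**Figure D5:**
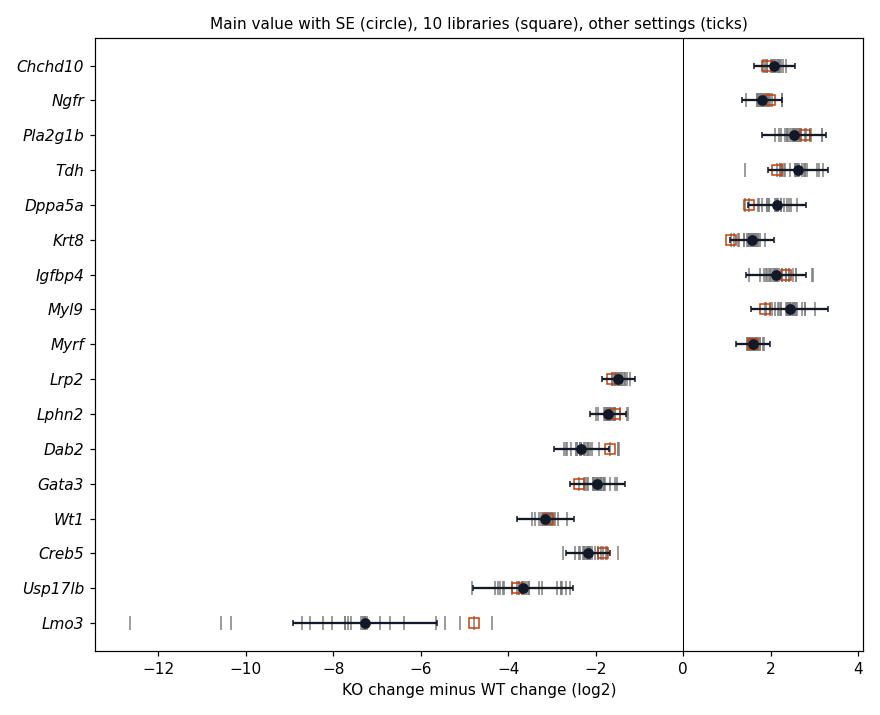
Difference of changes (KO minus WT, log2) of 17 named genes: circle and bar, value and SE over 12 libraries; square, 10 libraries; ticks, the other settings and each library left out. Genes from Chchd10 to Myrf stay right of 0 and those from Lrp2 to Lmo3 stay left of it, with Wt1 at -3.15 and its 10-library value at -3.10.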

How the data were processed

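Total RNA was depleted of rRNA and sequenced. Per the submitters' processing notes, TopHat and HOMER were used on mm9 for the RNA reads, and Novoalign and MACS2 for the ChIP reads and peaks; versions and the strand setting are not given in the sources used here. The gene table deposited by the authors holds, for each gene, a signal: its reads brought to the same total in every library. Each value was a whole number times 1 factor per library, so whole reads were recovered (100% of values, tolerance 0.006 reads). Libraries held 2081129 to 30527844 reads, which limits the precision of low genes. The H3K9ac peak lists deposited by the authors give fold enrichment ratios, 1 sample per group.

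Genes above 1 scaled read in at least 3 libraries were tested on log2(scaled reads + 1) with limma 3.58.1 (trend, robust; R 4.3.3) over all 12 libraries, with Benjamini-Hochberg adjustment at 0.05; the scripts were also tested on simulated data. Recovered reads were tested with edgeR 4.0.16 (quasi-likelihood, TMM) and DESeq2 1.42.0. Pandas 2.3.3, numpy 2.4.6 and matplotlib 3.10.9 (Python 3.11.15) served for tables and figures. Errors are SD over 3 libraries or moderated SE. Labels give each library its own donor number but do not say that cultures were separate, so p-values measure the spread between these libraries only.

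Named genes were Ehmt2 and Ehmt1; those with a group mean of at least 50, unadjusted p under 0.05 and a sign held with each library left out and without the 2 libraries with background (15 highest, 15 lowest, 6 of lowest p per class); up to 4 members per list with unadjusted p under 0.05; and 8 examples of differentiation. Not all are printed, and Klf2, Klf4, Zfp42, Xist, Tsix and list members quoted by their difference alone were added from the lists. Members and lists were chosen with earlier results of these data known. RefSeq promoter windows (GRCm38.p6) matched 67 of 99 named genes. 1 naive pluripotency list member is counted but not reported by name here. H3K9me2 samples, inputs and allelic counts were not used here.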

Additional observations from a re-analysis of the deposited data

How the results depend on the processing

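The difference of changes was called for 0 genes by limma in every setting and by edgeR, for 144 by DESeq2, and for 12 by DESeq2 without KO day 0 replicate 1 and WT day 10 replicate 3. Genes with a higher change at unadjusted p under 0.05 (176) numbered 273 without those 2 libraries, 298 without the first day 0 replicates, 347 without Rn45s, 617 with a depth term, 351 with DESeq2 and 860 with array weights. With edgeR and DESeq2 on 10 libraries (chosen after seeing the data) they numbered 626 and 815. Leaving out each library gave 88 to 266. Genes with a lower change (1619) numbered 929, 1044 without the first day 0 replicates, 2767 with a depth term, 3212 with array weights, and 268 and 365 with edgeR and DESeq2 on 10 libraries; leaving out each library gave 863 to 2582. Changes in WT (911) numbered 2141 on 10 libraries, 1823 with DESeq2 and 466 to 1389 with each library left out; changes in KO (1834) numbered 5409, 3351 and 199 to 4496, with 1046 in edgeR and 1054 with a pseudocount of 5. The median KO change of genes higher in WT (1.71) was 1.49 on 10 libraries and 1.57 to 2.02 with a library left out, and that of genes lower in WT (-1.38) was -1.79, -1.22 with RLE and -1.82 to -1.35. The median WT change of genes higher in KO (1.51) was 1.28 on 10 libraries and 1.41 to 2.70 with a library left out, and that of genes lower in KO (-0.79) was -1.84 to -0.33. H19 was -0.97 on 10 libraries and turned to 0.012 without Rn45s (-0.63 to 0.21 with a library left out). T turned to -0.20 with a depth term (-0.62 to 0.64 with a library left out). With shallow day 0 libraries only, H19 turned to 1.15 and T to -0.33. That fit kept KO day 0 replicate 1, a library with background, as the only KO day 0 library. Ehmt1 turned to 0.077 and 0.062 with edgeR and DESeq2 on 10 libraries (-0.53 to -0.17 with a library left out). The cause of these turns was not tested. Replicate numbers are shared between groups, and each library has its own donor number. Correlations between the deviations of same-numbered libraries ran from -0.636 to 0.828. Between the day 0 libraries of WT and KO they were 0.659, -0.215 and 0.828 for replicates 1, 2 and 3. What these libraries share beyond a number was not tested. With the replicate block 0 genes passed, and 165 higher and 1485 lower had unadjusted p under 0.05. Depth limits genes under about 10 scaled reads, where 1 read of a shallow library is worth 2.06 to 4.18 scaled reads.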

Other observations

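Several lists not described above had medians that lay on the other side of 0 without KO day 0 replicate 1 and WT day 10 replicate 3. Cytosolic ribosomal protein genes had a median difference of 0.28 (32 of 38 above 0) over 12 libraries and of -0.19 over 10. The p53 targets went from 0.34 to -0.22, stress response genes from 0.31 to -0.46, cholesterol synthesis genes from 0.24 to -0.39, glycolysis genes from 0.20 to -0.24, proliferation genes from 0.11 to -0.48 and DNA methylation genes from 0.26 to -0.14. Histone genes stayed above 0 in all 30 settings, with a median of 0.44 (21 of 23 above 0) over 12 libraries and 0.24 over 10. Hox genes had a median of 0.34 (26 of 39 above 0) over 12 libraries and 0.62 over 10, and fell below 0 without WT day 10 replicate 1 (-0.08).

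Primed epiblast genes, which mark the stage between naive cells and germ layers, had a median difference of 0.22, with 5 of 15 rising in WT and 6 in KO (2.02% and 2.43% of all genes), and of 0.05 without the 2 libraries. Fgf5, the classical marker of that stage, rose by 4.87 in WT (limma adjusted p = 0.00538), its KO change was 2.25 (adjusted p = 0.0988), and the difference was -2.62 (SE 1.23, unadjusted p = 0.0511; -1.91 without the 2 libraries). Fgf15, another FGF of that list, had changes of -1.33 and 1.23 and a difference of 2.56 (SE 1.01; 2.51 without the 2 libraries). Tubb3, a neuronal tubulin, fell by 3.19 in WT (limma adjusted p = 0.00527), and its KO change was -1.35 (adjusted p = 0.12), with a difference of 1.84 (SE 0.80; 1.35 without the 2 libraries). Thy1, a surface protein of stem cells that is also a fibroblast marker, fell by 2.96 in WT, and its KO change was -1.22, with a difference of 1.74 (SE 0.58; 1.48 without the 2 libraries). Xbp1, a factor of the unfolded protein response, had changes of -1.34 and -0.03 and a difference of 1.30 (SE 0.51; 0.78 without the 2 libraries).

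H3K9ac peaks near the start were listed for 28% of the 50 blunted rises in KO on day 0 and for 64% in WT on day 0, against 62.9% and 72.9% of tested genes with a group mean of at least 50, the filter these 50 had passed. On day 10 they were listed for 76% in WT and 78% in KO, near the 78.2% and 79.2% of those genes. For the 22 exaggerated rises the day 0 shares were 13.6% in KO and 45.5% in WT. Their day 10 shares were 77.3% in KO and 72.7% in WT. The low share in KO on day 0 was thus not particular to the blunted rises. With 1 sample per group and 37310 to 63050 peaks listed per sample, these shares describe the 4 samples only.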
